A study of Homo sapiens with 30 samples.

Results

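SW1783 is an established human astrocytoma cell line, and its transcriptome at rest was read from the 3 libraries of cells that received vehicle only. These were chosen by their labels out of 30 libraries in 13 groups. The other 27 came from the same line after 24 h with 70% ethanol extracts of 4 herbal formulas (Bojungikgi-tang, Sayeok-tang, Banhasasim-tang and Yijung-tang) labelled 500, 100 or 20 µg/mL, although the design text bases doses on the IC20 for extracts whose IC20 lay under 500 µg/mL. Vehicle cells were also collected at 24 h, labelled as 0.1% DMSO, while the series' own design text states 2%. The labels name no transgene or edit, and all cultures were kept in L-15 with serum. The values describe 1 cell line in culture and not astrocytoma tissue. The labels name no separate cultures for replicates 1, 2 and 3, so their spread may be technical.

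Astrocytes are the glial cells that clear glutamate, couple to each other through gap junctions and fill their processes with the intermediate filament protein GFAP. Tumours of astrocytic origin can lose parts of that program and take on features of connective tissue, a state that classifications of glioma call mesenchymal, in contrast to a proneural state that resembles oligodendrocyte precursors. Many gene functions are shared between paralogues, which are copies of an ancestral gene, and cell types differ in which copy they transcribe.

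The vehicle libraries held 28.01, 37.41 and 28.33 M counts assigned to genes. Levels are in CPM, the estimated count of a gene per 1 M counts of its library, by library or as mean ± SD over the 3, and genes are ordered against each other only after division by merged exon length in kilobases (CPM per kb). A gene is called used here when it reached 1 CPM in each vehicle library, silent when it stayed under 0.1 CPM in each, and in between otherwise. A gene with 0 counts among the 93.75 M of the 3 libraries can have had up to 0.032 CPM (3 counts over the group), an upper limit for counting error only. Of 60675 genes, 13589 (22.4%) were used and 39865 (65.7%) were silent. Of 19693 protein-coding genes, 12118 (61.5%) were used and 4899 (24.9%) were silent, and these genes took 97.4% of the counts. These shares are the background for every list below.

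The 3 libraries differed little. Over 9886 genes of at least 10 mean CPM, the highest vehicle library exceeded the lowest by a median ratio of 1.06, with a 95th percentile of 1.16. In 16 genes the ratio was 1.5 or more, and the number was 9 without replicate 1 and 10 without replicate 2 or without replicate 3. EIF3CL, a near-identical copy of a translation initiation factor gene, had 50.6, 48.3 and 14.8 CPM and led these genes. The 3 genes ENSG00000280614, ENSG00000280800 and ENSG00000281181 on chromosome 21, annotated as lincRNA without a symbol, had equal values in each library and summed to 110 and 108 CPM in replicates 1 and 3 and to 330 CPM in replicate 2. RGPD5, RGPD6 and MAGED4 also belong to sets of near-identical copies between which the counting model splits reads, so their levels are uncertain. Among genes without such copies, NMU, encoding the peptide neuromedin U and named after its values were seen, had 15.1, 23.1 and 24.8 CPM, and CEBPD, a stress-responsive transcription factor gene, had 7.89, 11.9 and 12.7 CPM. Replicate 1 was the low one for both. So it was for PRR7 (7.89, 11.98 and 12.5 CPM) and TRAPPC5 (18.6, 25.1 and 28.8 CPM), also named after their values were seen. EIF3CL, RGPD6 and MAGED4 were lowest in replicate 3, and RGPD5 in replicate 2. Whether replicate 1 stood apart as a whole was not tested. The spread was wider in low genes, with a median coefficient of variation of 8.54% in the 3703 used genes under 10 CPM against 2.88% above that level.

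A few genes dominated the RNA. The 10 most abundant took 6.33% of the counts, the top 30 took 12.2% and the top 1000 took 51.3%. Of the top 30, 10 were mitochondrially encoded, led by MT-CO1, the catalytic subunit of cytochrome oxidase, at 11746, 11299 and 12005 CPM. Genes of the cytoskeleton and the matrix were prominent among the nuclear ones. ACTB, encoding beta actin, had 7672, 7717 and 7526 CPM, and FN1, encoding the matrix glycoprotein fibronectin, had 5421, 5359 and 5411 CPM. FLNA, whose product cross-links actin filaments, stood at 4537 ± 71.4 CPM, and TGFBI, a matrix protein gene induced by TGF-beta, at 4386 ± 69.7 CPM. No library stood apart for MT-CO1, ACTB or FN1.

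The rest of the top 30 covered translation, glycolysis, protein folding and adhesion. EEF1A1, the general elongation factor, had 5470.3 ± 107 CPM, and the endoplasmic reticulum chaperone HSPA5 had 3614 ± 37.1 CPM. Glycolysis was represented by GAPDH at 3702 ± 92.6 CPM, PKM at 2829.7 ± 15.9 CPM and ENO1 at 2730.4 ± 47.2 CPM. CD44, the hyaluronan receptor, had 2832 ± 24.5 CPM. On the per-length scale 18 of these 30 genes stayed in the top 30, and short transcripts entered, among them TMSB10 and TMSB4X, which encode actin-binding thymosins, FTL for ferritin light chain, S100A6, LGALS1, IGFBP7 and TIMP1. TMSB10 stood at 1517 ± 65.7 CPM per kb, against 2171 ± 28.4 CPM per kb for ACTB. With the longest transcript in place of the merged exons, 26 of the 30 genes highest per length were the same.

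Long noncoding RNAs, named here after their values were seen, included MALAT1, a nuclear RNA of speckles, with 887, 945 and 954 CPM. MEG3, an RNA transcribed from the maternal copy of an imprinted locus, had 813, 874 and 839 CPM, and NEAT1, the scaffold of paraspeckles, had 483, 542 and 537 CPM. NORAD, which binds Pumilio proteins, stood at 427 ± 7.34 CPM. Of 12667 lincRNA and antisense genes, 743 (5.87%) were used, and together the class took 0.81% of the counts.

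The baseline pattern was shared by the treated libraries. Of the used genes, 13050 (96.0%) also reached 1 CPM in all 27 treated libraries, and 39851 of the silent genes (99.96%) stayed under 1 CPM in all 27. At the limit that defined silence, 0.1 CPM, 37740 of the 39865 did. Mitochondrial transcripts took 5.06 to 5.42% of the counts in vehicle and 6.56 to 14.5% in treated libraries, so the ranges did not overlap.

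The fibroblast and mesenchymal markers were all used and markers of differentiated astrocytes were split. All 20 genes of a fibroblast and mesenchymal list were used, as were all 16 genes of a mesenchymal glioma list. The background was 61.5% of protein-coding genes. The lists were chosen with earlier results of these data known, so an excess over this background is partly fixed by that choice. The astrocyte and radial glia list had 14 of 24 genes used and 5 silent. Other lists ranged from 12 of 14 used for smooth muscle and pericytes to 3 of 12 for proneural glioma, 3 of 15 for microglia and macrophages and 0 of 12 for lymphoid and erythroid cells.

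**Figure D1:**
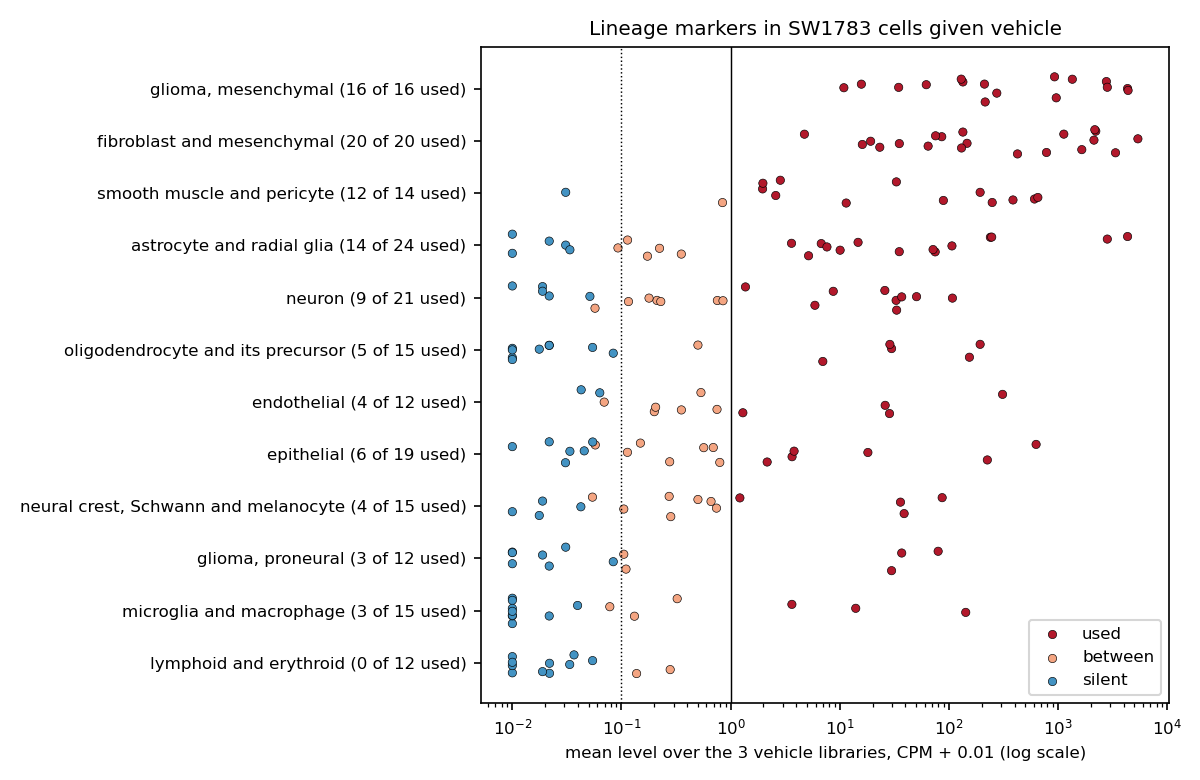
Mean level of each marker over the 3 vehicle libraries, in CPM plus 0.01 on a log axis, with 1 point per gene and 1 line per lineage list. The solid line marks 1 CPM and the dotted line 0.1 CPM. All 20 fibroblast and mesenchymal genes lie to the right of the solid line, 14 of 24 astrocyte genes do, and no lymphoid or erythroid gene does.

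The 5 genes that were given as markers of these cells were all used in every library. VIM, encoding vimentin, the intermediate filament of mesenchymal and radial glial cells, had 4159.5, 4301 and 4559 CPM. COL1A1, the alpha 1 chain of type I collagen, had 3338, 3455 and 3301 CPM. GJA1, encoding the astrocyte gap junction protein connexin 43, had 253, 241 and 246 CPM. SOX9, a transcription factor of astrocytes and of chondrocytes, had 72.3, 77.5 and 74.8 CPM, and SLC1A3, the glial glutamate transporter GLAST, had 35.9, 35.05 and 34.4 CPM. In each of the 5 the SD was under 5% of the mean. Per length the order was VIM at 841 ± 39.2 CPM per kb, COL1A1 at 343 ± 8.18 CPM per kb, GJA1 at 72.3 ± 1.76 CPM per kb, SOX9 at 19.03 ± 0.663 CPM per kb and SLC1A3 at 5.61 ± 0.117 CPM per kb, and neighbours in this order differed by more than their SDs.

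The other genes of the astrocyte list ranged from 0 counts to high levels. GFAP, the defining filament gene of mature astrocytes, had 0.0357, 0.107 and 0.106 CPM. AQP4, the water channel of astrocyte endfeet, and GJB6, encoding connexin 30, had 0 counts in all 3 libraries. SOX2, a factor of neural stem cells, had 0.0208 ± 0.0186 CPM, FABP7, a radial glial lipid carrier, 0.0118 ± 0.0204 CPM, and ALDH1L1, a folate enzyme used as a pan-astrocyte marker, 0.0237 ± 0.0205 CPM. The glutamate transporter SLC1A2 had 0.344 ± 0.0198 CPM and S100B had 0.213 ± 0.09404 CPM. Those that were used besides the 5 included ID3 at 240.1 ± 2.296 CPM, HOPX at 107 ± 2.26 CPM, the glutamine synthetase gene GLUL at 71.6 ± 2.54 CPM, NES, encoding nestin, at 10.1 ± 0.0859 CPM and PAX6 at 7.62 ± 0.445 CPM. Against the label of an astrocytoma line, GFAP, AQP4 and GJB6 were thus at or near 0, and GFAP stayed below 0.3 CPM in all 30 libraries, with a treated range of 0.0407 to 0.218 CPM.

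The 250 bases before the RefSeq start are shown for 2 used and 2 silent genes of this list, from RefSeq on GRCh38.p14, 5′ to 3′ on the gene's strand, with each CG dinucleotide in capitals. They are shown because they come from the used and the silent side of the astrocyte list. Positions are chr10:17227991-17228240 (plus strand) for VIM, chr6:121435396-121435645 (plus) for GJA1, chr13:20230979-20231228 (minus) for GJB6 and chr3:181711675-181711924 (plus) for SOX2.
VIM: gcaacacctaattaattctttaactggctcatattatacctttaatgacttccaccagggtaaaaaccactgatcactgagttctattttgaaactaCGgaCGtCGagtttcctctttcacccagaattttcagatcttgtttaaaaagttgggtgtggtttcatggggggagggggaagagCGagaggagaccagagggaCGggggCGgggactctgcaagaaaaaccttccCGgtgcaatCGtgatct
GJA1: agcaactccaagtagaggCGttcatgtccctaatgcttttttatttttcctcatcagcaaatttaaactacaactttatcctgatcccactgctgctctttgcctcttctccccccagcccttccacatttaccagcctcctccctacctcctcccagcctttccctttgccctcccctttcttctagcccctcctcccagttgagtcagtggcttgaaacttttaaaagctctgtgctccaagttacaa
GJB6: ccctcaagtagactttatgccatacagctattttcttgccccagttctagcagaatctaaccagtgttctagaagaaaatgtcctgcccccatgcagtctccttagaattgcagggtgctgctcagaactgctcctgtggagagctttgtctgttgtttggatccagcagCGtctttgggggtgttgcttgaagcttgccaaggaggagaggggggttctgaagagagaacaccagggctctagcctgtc
SOX2: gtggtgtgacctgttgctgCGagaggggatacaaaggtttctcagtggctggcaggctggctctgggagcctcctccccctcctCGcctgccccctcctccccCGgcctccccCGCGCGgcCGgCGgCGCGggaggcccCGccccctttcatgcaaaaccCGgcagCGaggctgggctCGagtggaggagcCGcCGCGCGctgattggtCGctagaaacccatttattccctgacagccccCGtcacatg

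Counted on either strand, since CG reads the same on both, the window of VIM held 8 CG, that of GJA1 held 1, that of GJB6 held 1 and that of SOX2 held 20. Among 34959 RefSeq windows of the same length, the median was 11 CG, 94.0% held at least 1, 14.6% held at most 1 and 32.5% held at least 20. RefSeq starts can differ from those of the annotation used for levels, in which the GJB6 window lies inside the gene and the GJA1 window overlaps its start. DNA methylation was not analysed here.

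Matrix genes were both numerous and high. The alpha chains COL1A2 (2135 ± 15.1 CPM), COL5A1 (2174 ± 39.5 CPM), COL6A1 (1652 ± 73.2 CPM) and COL6A2 (1131 ± 57.0 CPM) each passed 1000 CPM, and so did SPARC, a collagen-binding glycoprotein gene, at 2219 ± 56.1 CPM. COL3A1, a companion of type I collagen in fibroblasts, had 64.5, 66.5 and 62.6 CPM, and per length it stood at 9.47 ± 0.287 CPM per kb against 343 ± 8.18 CPM per kb for COL1A1. THY1, a surface marker of fibroblasts and neurons, had 425 ± 7.18 CPM, and FAP, a protease of activated fibroblasts, had 86.03 ± 1.76 CPM. The genes of the proteoglycans decorin and lumican, DCN and LUM, had 19.2 ± 1.103 CPM and 35.1 ± 1.73 CPM. Of the mesenchymal glioma list, CHI3L1, which encodes the secreted protein YKL-40, had 1344, 1309.8 and 1407 CPM and TIMP1, an inhibitor of matrix proteases, had 961, 962 and 969 CPM.

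Smooth muscle and pericyte markers were used in 12 of 14 cases, among them TAGLN at 249.5 ± 4.52 CPM, ACTA2 at 89.04 ± 0.671 CPM and CSPG4, the NG2 proteoglycan gene, at 193 ± 0.7902 CPM. MYH11, the myosin of mature smooth muscle, had 0.833 ± 0.0978 CPM, and DES was silent at 0.0208 ± 0.0186 CPM. Of the oligodendrocyte list 5 of 15 were used, and of its transcription factors OLIG1, OLIG2, SOX10 and NKX2-2 were silent, with OLIG2 at 0.0741 ± 0.00533 CPM, whereas the myelin factor MYRF was used at 28.5, 29.2 and 28.7 CPM. PDGFRA, which marks the precursor, had 30.2, 29.4 and 29.9 CPM.

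Neuronal markers were mixed, with 9 of 21 used. The cytoskeletal and exocytosis genes TUBB3 (108 ± 4.32 CPM), SYT1 (33.2 ± 0.803 CPM) and SNAP25 (32.8 ± 0.396 CPM) were used, whereas DCX, GAP43, ELAVL3, ELAVL4 and INA, genes of migrating or mature neurons, were silent. Of the 19 epithelial genes 6 were used, and this number depended on the threshold, with 3 at 5 CPM and 8 at 0.5 CPM in each library. KRT7 had 621, 631 and 638 CPM and KRT18 had 223, 219.5 and 233 CPM, while the adhesion genes CDH1 and EPCAM had 0.0237 ± 0.0205 CPM and 0.0476 ± 0.0544 CPM, and the epithelial splicing regulator ESRP1 had 0 counts.

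Immune markers were nearly all low, and the exceptions were the lysosomal gene CD68 at 143 ± 5.36 CPM, the colony-stimulating factor receptor CSF1R at 3.63 ± 0.215 CPM and PTPRC. PTPRC encodes the leukocyte phosphatase CD45 and had 14.1, 14.1 and 13.8 CPM, with 2.64 to 13.8 CPM in the treated libraries. The microglial and macrophage genes AIF1, TYROBP, TREM2, SPI1, C1QA, C1QB and CD163 had 0 counts in all 3 libraries, and the lymphoid and erythroid list had 0 of 12 used. The summed level of the microglia list was 155 to 164 CPM over the libraries.

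Receptors, the proteins through which a cell can respond to signals, were used in 213 of 438 cases (48.6%) and silent in 118, over 40 families. Use varied widely by family. All 9 plexins and all 4 Notch receptors were used, against 1 of 22 chemokine receptors. Of 54 receptor tyrosine kinases 30 were used and 8 silent. Of 96 genes in 9 families of transmitter receptors, 21 (21.9%) were used and 46 were silent, below the 61.5% of protein-coding genes.

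**Figure D2:**
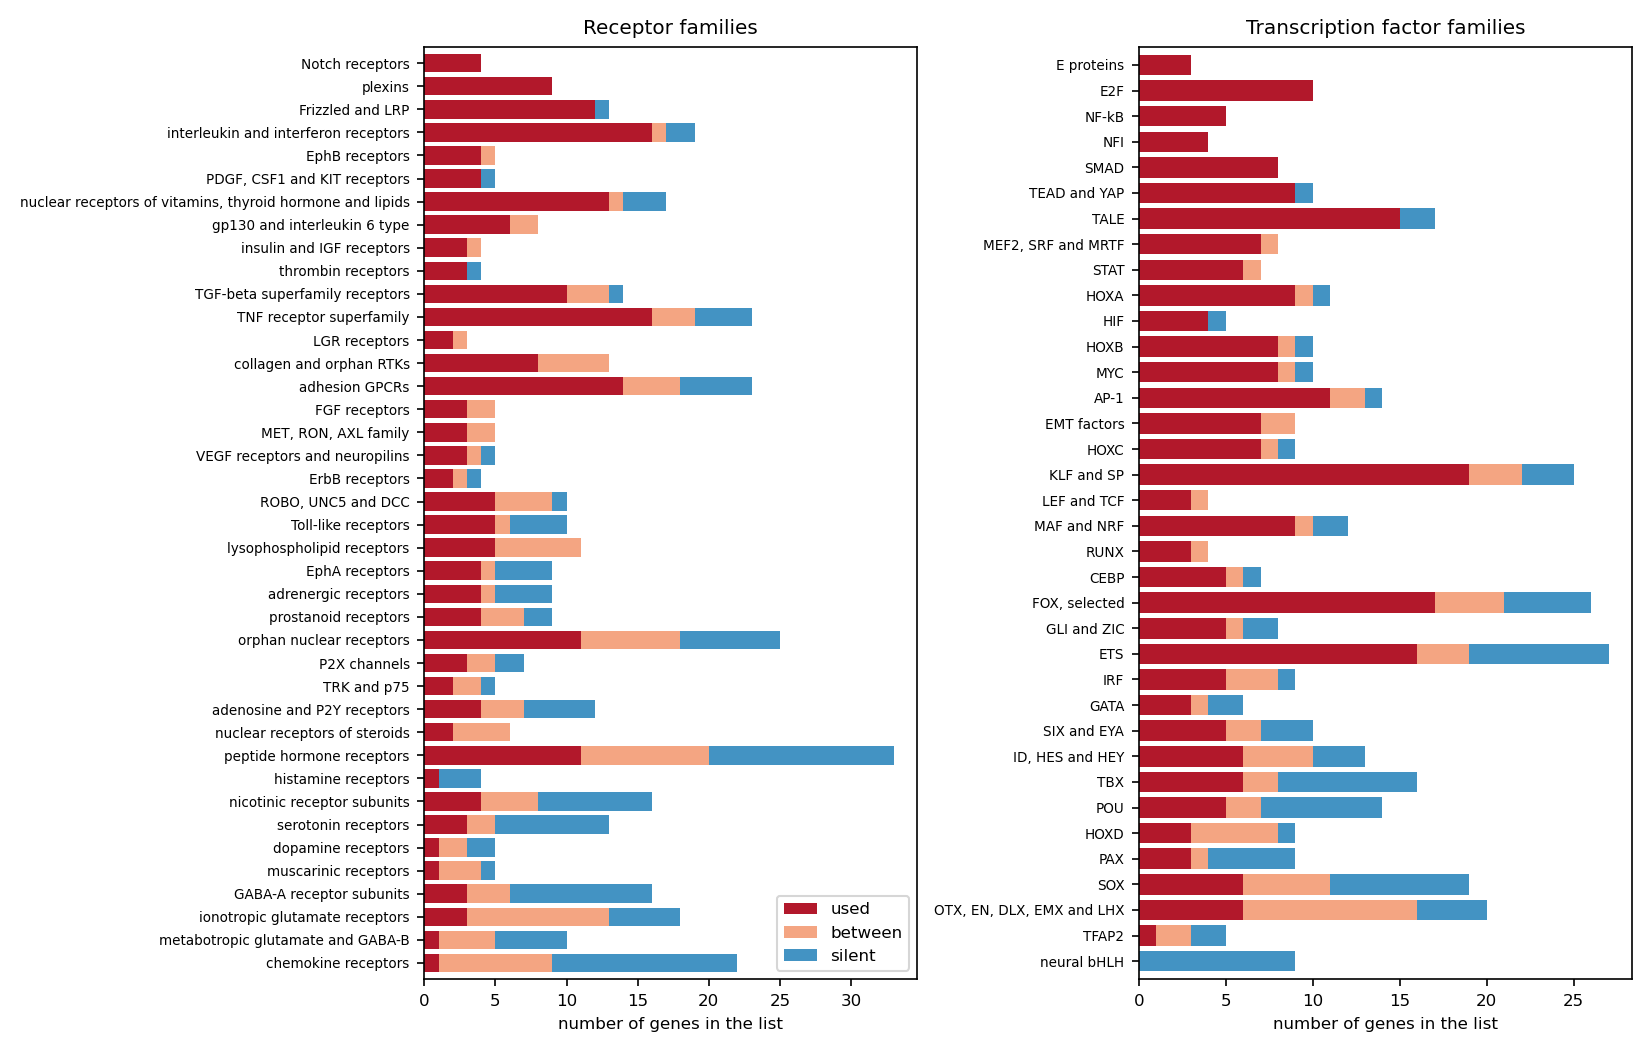
Number of genes that were used (at least 1 CPM in each vehicle library), silent (under 0.1 CPM in each) or in between, in 40 receptor families on the left and 36 of 37 transcription factor families on the right, sorted by the share used. The plexin and Notch receptor bars are all used, 1 of 22 chemokine receptors is, and all 9 neural bHLH genes are silent.

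The receptors highest per length served growth factor and cytokine signals. MET, the receptor of hepatocyte growth factor, had 961, 923 and 904 CPM, and AXL, the receptor of GAS6, had 645, 643 and 652 CPM. TNFRSF12A, which binds the cytokine TWEAK, had 243 ± 13.98 CPM. Per length MET stood at 132 ± 4.11 CPM per kb, TNFRSF12A at 131 ± 7.56 CPM per kb and AXL at 126 ± 0.852 CPM per kb, and neighbours in this order did not differ beyond their SDs. ENG, a TGF-beta co-receptor, came next at 78.9 ± 3.82 CPM per kb. IL6ST, the shared gp130 subunit of interleukin 6 type receptors, stood at 73.7 ± 1.496 CPM per kb, with its partners OSMR at 35.2 ± 0.376 CPM per kb and LIFR at 9.78 ± 0.112 CPM per kb, while the interleukin 6 receptor gene IL6R itself had 2.31 ± 0.199 CPM. IL13RA2, a decoy receptor of interleukin 13 studied as a glioma antigen, had 76.3, 75.6 and 71.9 CPM.

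Use within the families of tyrosine kinases was uneven. Of the ErbB receptors EGFR had 349, 335 and 341 CPM and ERBB2 had 96.7 ± 2.46 CPM, while ERBB3 had 0.09496 ± 0.103 CPM and ERBB4 was silent at 0.0416 ± 0.0372 CPM. Of the FGF receptors FGFR1 had 196 ± 7.68 CPM and FGFRL1, a member without a kinase domain, 110.3 ± 3.27 CPM, with FGFR3 at 3.605 ± 0.156 CPM, FGFR2 at 0.548 ± 0.243 CPM and FGFR4 at 0.758 ± 0.126 CPM. PDGFRB had 75.5 ± 1.19 CPM and KIT, the stem cell factor receptor, had 57.2 ± 1.73 CPM. Of the Eph receptors, which read ephrins on neighbouring cells, EPHA2 and EPHB2 were the highest per length at 64.2 ± 1.398 CPM per kb and 19.2 ± 0.286 CPM per kb, and EPHA6 and EPHA8 had 0 counts. The neurotrophin receptors NTRK2 and NTRK3 were under 1 CPM, and NGFR had 1.21, 1.31 and 1.09 CPM. ROS1, an orphan receptor kinase gene whose rearranged forms occur in glioma and lung cancer, had 18.8 ± 0.164 CPM.

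Ligands of several used receptors were used as well. JAG1 had 104 ± 2.05 CPM and was the main Notch ligand, beside NOTCH2 at 422 ± 4.78 CPM. FGF2 had 321 ± 8.27 CPM, FGF5 40.3 ± 0.445 CPM and FGF7 42.2 ± 1.88 CPM, and 8 of 22 FGF genes were used. Among EGF-like ligands HBEGF had 30.03 ± 1.66 CPM and TGFA had 16.97 ± 0.724 CPM, while AREG had 0 counts. TGFB1 had 409 ± 44.1 CPM with its receptors TGFBR1 at 109 ± 6.82 CPM and TGFBR2 at 82.9 ± 0.253 CPM. WNT5A, a ligand of the noncanonical Wnt branch, had 169 ± 2.49 CPM, and 5 of 19 WNT genes were used, beside 12 of 13 Frizzled and LRP genes. Levels of protein were not measured.

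Transmitter and peptide receptors were sparse, with single members standing out. HRH1, the histamine H1 receptor, had 46.4, 42.9 and 45.7 CPM, whereas HRH2, HRH3 and HRH4 were silent. The serotonin receptors HTR7 and HTR2A had 21.4 ± 1.48 CPM and 7.91 ± 0.795 CPM, and 8 of 13 genes of that family were silent. GRIK2, a kainate receptor subunit, had 63.3, 61.2 and 61.2 CPM, GRIA3, an AMPA receptor subunit, had 18.01 ± 0.795 CPM, and the obligatory NMDA receptor subunit gene GRIN1 had 0.06502 ± 0.0365 CPM. GABRE, an epsilon subunit of the GABA-A receptor, had 53.1 ± 1.78 CPM, and 10 of 16 subunits were silent. The kinin receptors BDKRB1 and BDKRB2 had 32.4 ± 1.77 CPM and 29.8 ± 0.595 CPM, and the oxytocin receptor OXTR had 21.7 ± 0.397 CPM. In chemokine receptors only ACKR3, a scavenging receptor of CXCL12, was used, at 2.14, 2.06 and 2.01 CPM, and the signalling receptor CXCR4 had 1.28, 0.882 and 1.41 CPM, which falls below 1 CPM in 1 library.

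Nuclear receptors of hormones included NR3C1, the glucocorticoid receptor, at 255, 250.4 and 246 CPM, and ESR1 and PGR at 0.791 ± 0.0189 CPM and 0.785 ± 0.221 CPM. Of 17 receptors for vitamins, thyroid hormone and lipids 13 were used, with PPARD at 107 ± 2.46 CPM, RARA at 85.5 ± 0.992 CPM and RXRA at 80.1 ± 1.63 CPM. The pregnane X receptor NR1I2 and RXRG had 0 counts.

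Transcription factors were used more often, in 248 of 394 cases (62.9%), close to the 61.5% of protein-coding genes, and 83 were silent. Per length the highest were HIF1A, the oxygen-regulated factor, with 1188, 1168 and 1174 CPM or 228 ± 2.06 CPM per kb, then ID1 at 218 ± 5.82 CPM per kb and ID3 at 134 ± 1.28 CPM per kb, inhibitors of bHLH factors. FOSL1 (161 ± 11.6 CPM) and FOSL2 (275 ± 4.30 CPM), members of AP-1, NFE2L1 (459 ± 5.98 CPM), a regulator of proteasome genes, and NFIX (388 ± 21.97 CPM), a nuclear factor I gene, were also among the 10 highest. FOS itself had 1.61, 1.604 and 1.80 CPM, and per length FOSL1 stood at 85.3 ± 6.17 CPM per kb against 0.516 ± 0.0347 CPM per kb for FOS.

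Factors of epithelial-mesenchymal transition were mostly used, and neural bHLH factors were not. Of the first list 7 of 9 were used, including PRRX1 at 131 ± 2.65 CPM, SNAI2 at 79.6 ± 4.51 CPM, ZEB1 at 68.8 ± 0.401 CPM and TWIST1 at 23.3 ± 1.66 CPM. The YAP and TEAD group had 9 of 10 used, with TEAD1 at 299 ± 8.62 CPM and YAP1 at 195 ± 5.81 CPM. All 9 neural bHLH factors, among them NEUROG2, NEUROD1 and OLIG2, were silent. The SOX family had 6 of 19 used, including SOX9 and SOX4 at 96.3 ± 2.804 CPM. Of forebrain factors, DLX1 and DLX2 had 19.9 ± 0.741 CPM and 19.4 ± 1.83 CPM, and EMX2 and OTX2 had 0 counts.

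HOX genes, which give cells positional identity along the body axis and are absent from the developing forebrain, were mostly used. Of 39 HOX genes 27 were used, 8 in between and 4 silent, beside 61.5% of protein-coding genes used. Whether the share of HOX genes exceeds that background was not tested. HOXB3 had 56.6, 54.7 and 56.4 CPM and HOXB4 had 21.7 ± 1.02 CPM. From the posterior end, HOXC10 had 26.3 ± 1.403 CPM, HOXC13 had 16.2 ± 0.386 CPM, HOXA9 had 23.2 ± 1.897 CPM and HOXA10 had 16.2 ± 0.7104 CPM. HOXB1 and HOXC12 had 0 counts in all 3 libraries, and HOXD had the fewest used, 3 of 9. Used genes ran from paralogue group 1 to group 13 in HOXA. HOX clusters hold antisense genes, and no source used here gives the strand setting of the counting, so reads of such partners cannot be told apart. TALE factors, the partners of HOX proteins on DNA, were used in 15 of 17 cases, with MEIS2 at 53.99 ± 3.304 CPM.

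**Figure D3:**
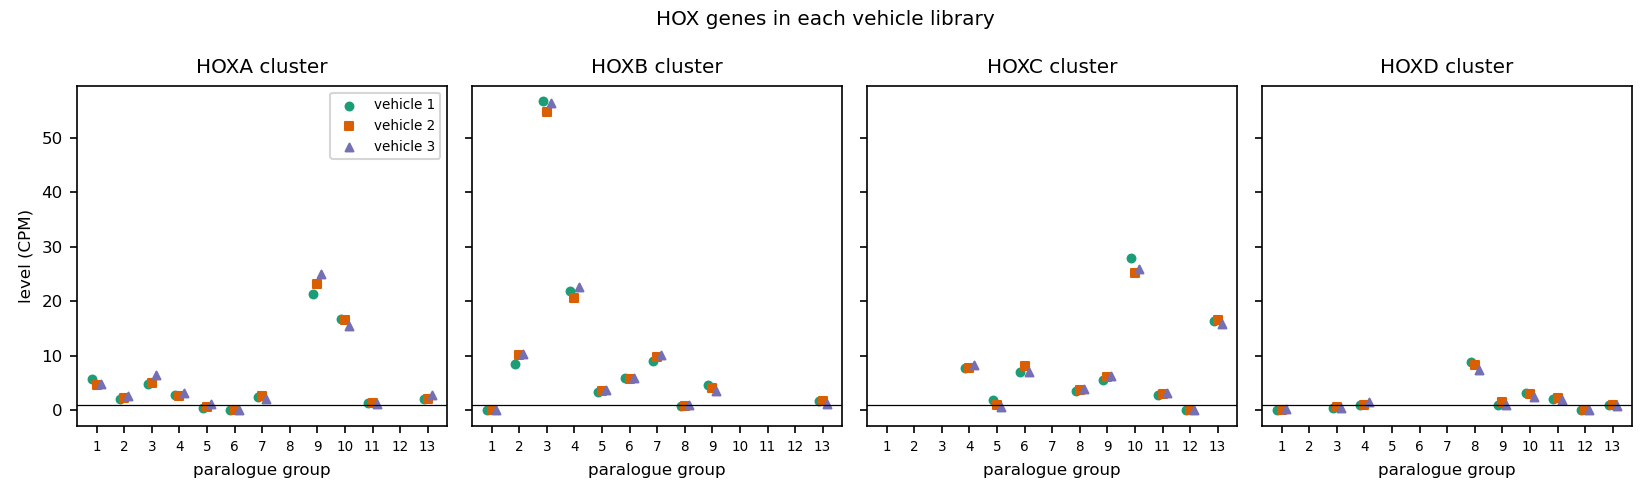
Level of each HOX gene in each vehicle library, in CPM on a linear axis, by cluster and paralogue group, with 1 symbol per library and a line at 1 CPM. HOXB3 lies between 54 and 57 CPM, and used genes appear in both anterior and posterior groups of HOXA, HOXB and HOXC.

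Paralogue families were compared by the share of a family's summed CPM per kb that its highest member took. Of 84 families or small functional groups 80 had a used member, and in 21 of these 1 member took at least 80% in each library. In 21 families every member was used, and in 4 none was, namely the fatty acid binding proteins, the let-7 regulators LIN28A and LIN28B, the nitric oxide synthases and a group of 13 cancer-testis antigens. Just inside the threshold lay CDK4 of the CDK4 and CDK6 pair, with a share of 81.5 to 82.6%, and just outside it PTBP1 of the polypyrimidine tract binding proteins, with 78.8 to 81.4%.

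**Figure D4:**
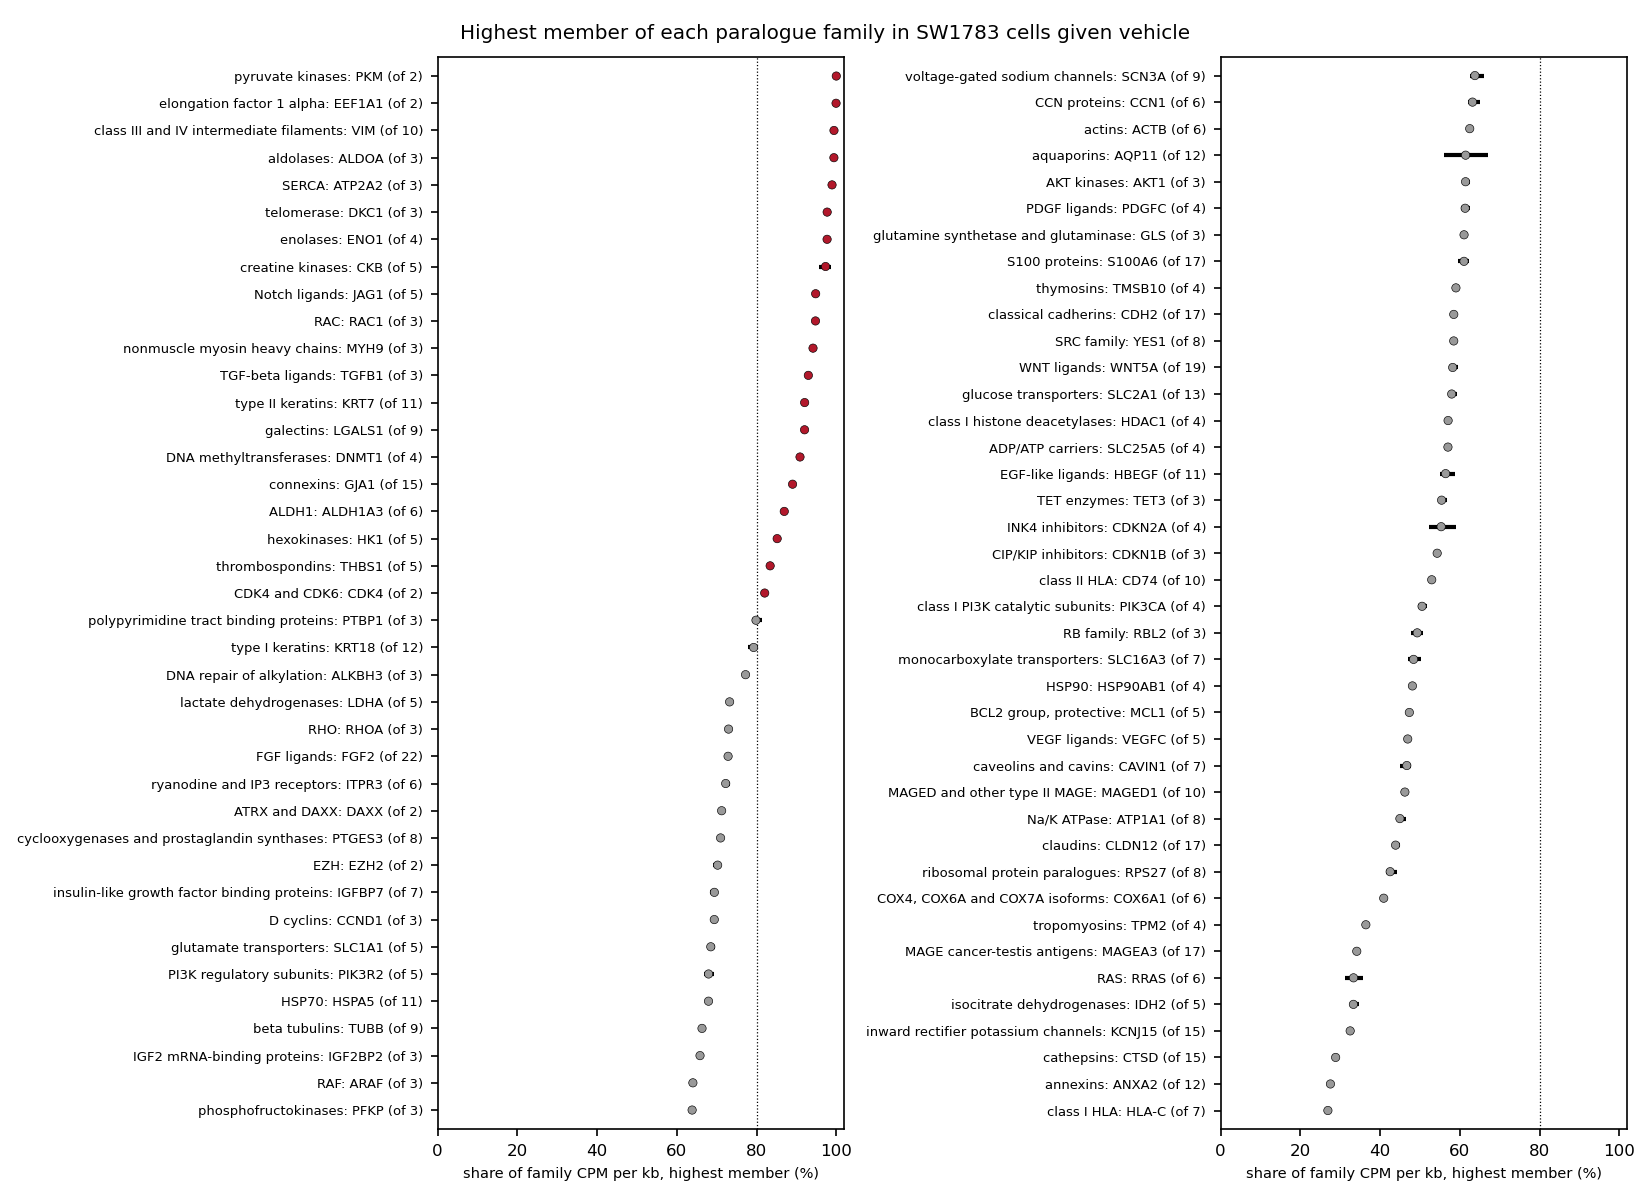
Share of each family's summed CPM per kb that its highest member took, for 79 of the 80 families with a used member, as the mean of 3 libraries (points) with the lowest and highest library (bars). Red points reached 80% (dotted line) in each library, and 20 of the families shown did.

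Single-member use was clearest in filaments, glycolysis and translation. VIM took 99.4% of 10 class III and IV intermediate filament genes, of which 4 were used. The other used ones were SYNM, encoding synemin, at 12.8 ± 0.416 CPM, NES at 10.1 ± 0.0859 CPM and the light neurofilament gene NEFL at 5.91 ± 0.329 CPM, while GFAP, DES, NEFM and NEFH had under 0.2 CPM. PKM took all of the pyruvate kinase pair, as PKLR, the liver and erythrocyte form, had 0 counts. ALDOA took 99.3 to 99.5% of the aldolases, although ALDOC, the brain form, was used at 7.46, 6.71 and 6.11 CPM. ENO1 took 97.6 to 97.8% of the enolases beside the neuronal form ENO2 at 50.5 ± 1.39 CPM, and HK1 took 84.8 to 85.5% of the hexokinases. EEF1A1 took 99.9% against EEF1A2, its form in neurons and muscle, at 2.78 ± 0.192 CPM.

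Other families were also led by 1 member. GJA1 took 88.8 to 89.4% of 15 connexins, with GJC1 next at 65.6 ± 1.703 CPM. MYH9 took 94.1 to 94.2% of the nonmuscle myosins and ATP2A2 98.9 to 99.03% of the SERCA pumps. TGFB1 took 92.1 to 93.6% of the TGF-beta ligands, JAG1 94.5 to 95.4% of the Notch ligands and DNMT1, the maintenance methyltransferase, 90.8 to 90.99% of its family. KRT7 took 91.95 to 92.2% of 11 type II keratins. KRT8, another type II keratin gene of simple epithelia, had 18.3, 18.3 and 17.7 CPM, less than KRT7 in every library. Per length KRT8 stood at 2.63 ± 0.0454 CPM per kb against 154 ± 2.18 CPM per kb for KRT7. ALDH1A3, which makes retinoic acid, took 86.7 to 87.1% of its family at 664, 658 and 657 CPM, and ALDH1A1 was silent at 0.0297 ± 0.0272 CPM.

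Some families divided their RNA. The highest member of class I HLA, of the annexins and of the cathepsins took under 30%. Among glutamate transporters SLC1A1 exceeded SLC1A3 per length, at 12.2 ± 0.429 CPM per kb against 5.61 ± 0.117 CPM per kb. LDHA and LDHB stood at 303 ± 8.58 CPM per kb and 110.5 ± 1.59 CPM per kb. All 7 insulin-like growth factor binding proteins were used, led by IGFBP7 at 1560.3, 1705 and 1716 CPM. The caveolae genes CAVIN1 and CAV1 had 848 ± 34.6 CPM and 829 ± 22.1 CPM, and CAVIN3 had 0 counts.

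Cell cycle and genome maintenance genes differed widely in level. CCND1 had 169, 162 and 177 CPM and CCND3 had 89.7 ± 1.28 CPM, whereas CCND2 had 0 counts in the vehicle libraries. CDKN2A, the gene of the inhibitors p16 and p14ARF, had 196, 241 and 274 CPM, and CDKN2B had 33.2 ± 1.02 CPM. RB1, whose product p16 keeps active, had 6.18, 6.23 and 7.09 CPM, and per length it stood at 1.01 ± 0.0799 CPM per kb against 10.4 ± 0.299 CPM per kb for RBL2 and 9.72 ± 0.434 CPM per kb for RBL1. The telomerase gene TERT had 1.89, 1.52 and 1.62 CPM. MGMT, which repairs alkylated guanine, had 0.357, 0.829 and 0.882 CPM and stayed under 1 CPM in each library. ATRX, a chromatin remodeller gene, had 169 ± 6.41 CPM. Mutation and protein were not analysed here. Of 17 MAGE genes of the cancer-testis type, which are silent in most adult tissues outside the testis, 6 were used, with MAGEA3 at 19.3, 20.1 and 20.1 CPM and MAGEA6 at 15.8 ± 0.609 CPM, whose near-identical sequence makes the split between them uncertain.

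A stretch of chromosome 4 stood out when genes were read in their order along the genome, a view chosen after the values were seen. PAICS, a purine synthesis enzyme gene, had 3268, 3219 and 3190.1 CPM and SRP72, a subunit gene of the signal recognition particle, had 2584, 2520.2 and 2516 CPM, and both were among the 30 most abundant genes. They lie within chr4:55346109-57110385 (GRCh38, GENCODE v29), which runs from SRD5A3 to IGFBP7 over 1.76 Mb and holds 21 protein-coding genes. Of these 18 were used and 8 (38.1%) reached 500 CPM, against 1.12% of all protein-coding genes. The borders of the stretch were also set with the values known, so this excess is partly fixed by that choice. The 8 were TMEM165, CLOCK, EXOC1, PPAT, PAICS, SRP72, POLR2B and IGFBP7. The circadian gene CLOCK had 1856, 1813 and 1758 CPM, POLR2B, the second largest subunit of RNA polymerase II, had 1869.5, 1818 and 1801 CPM, and PPAT, the first enzyme of purine synthesis, had 554, 556 and 545 CPM.

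**Figure D5:**
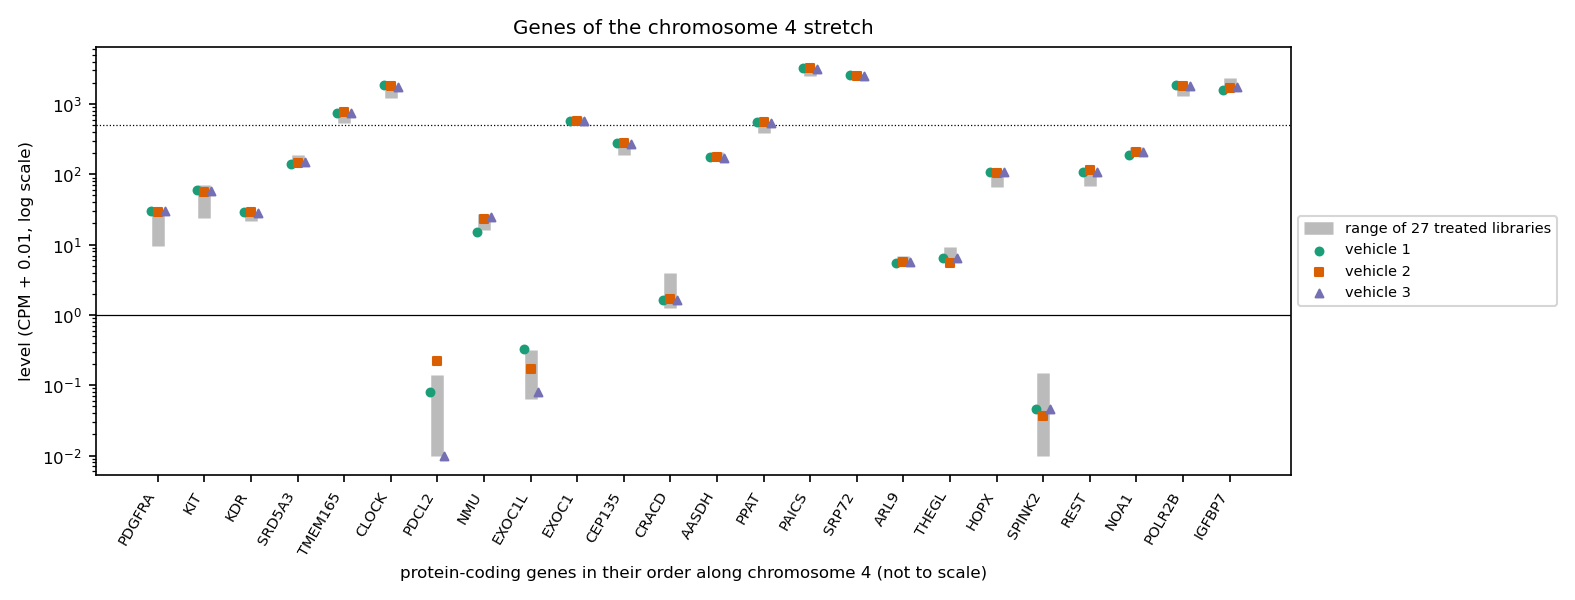
Level of each protein-coding gene from PDGFRA to IGFBP7, in their order along chromosome 4, in CPM plus 0.01 on a log axis, with 1 symbol per vehicle library and a grey bar for the range of the 27 treated libraries. Lines mark 500 and 1 CPM. In the vehicle libraries the 8 genes above 500 CPM lie among genes of other levels, and PDGFRA, KIT and KDR lie below 60 CPM. The treated range of PPAT lies under 500 CPM, and that of KIT reaches 70.5 CPM.

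High levels were not uniform across the stretch. CEP135 had 274 ± 8.15 CPM, REST, a repressor of neuronal genes, had 110.0 ± 3.37 CPM, CRACD had 1.63 ± 0.0258 CPM, and PDCL2, EXOC1L and SPINK2 stayed under 1 CPM. Just before it lie the receptor genes PDGFRA at 29.8 ± 0.434 CPM, KIT at 57.2 ± 1.73 CPM and KDR at 28.6 ± 0.454 CPM. Over 11884 windows of 10 consecutive used protein-coding genes, the window from TMEM165 to SRP72 had the highest median, 562 CPM (555 to 567 by library). The next window that did not overlap it, from DDOST to CDC42 on chromosome 1, had 199 CPM, and the median window had 34.5 CPM. The window from TMEM165 to SRP72 ranked first in all 30 libraries, with 456 to 541 CPM in the treated ones, and it also ranked first on the per-length scale, with 104 CPM per kb against 6.62 for the median window. With windows of 20 genes the highest ended at IGFBP7, and with windows of 5 it ended at EEF1G on another chromosome, at 782 CPM. What sets these levels was not tested.

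PPAT and PAICS are transcribed away from each other from starts that are close together, and both were above 500 CPM. RefSeq lists further starts of PAICS. The bases between the 2 facing starts are shown because they are shared by both promoters, at chr4:56435616-56435751 on GRCh38.p14, plus strand, 5′ to 3′ in the direction of PAICS, from RefSeq, with CG in capitals.
PPAT to PAICS: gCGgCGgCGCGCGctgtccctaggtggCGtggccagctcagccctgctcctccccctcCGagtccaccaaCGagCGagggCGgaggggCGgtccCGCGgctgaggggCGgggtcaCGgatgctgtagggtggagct

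These 136 bases held 15 CG. Of RefSeq windows cut to the 136 bases before the start, 88.1% held at least 1 CG, the median was 6 and 22.9% held at least 15. Per length PAICS stood at 429 ± 5.23 CPM per kb and PPAT at 101 ± 1.04 CPM per kb.

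Vehicle levels were set against the 8 libraries of the lowest dose, 20 µg/mL, of Bojungikgi-tang (3), Sayeok-tang (3) and Banhasasim-tang (2), to see how far the baseline of listed genes also holds in other libraries of the same cells. By edgeR's quasi-likelihood test over 19632 genes, 6151 (31.3%) differed at an adjusted p under 0.05, 3220 (16.4%) higher and 2931 (14.9%) lower in vehicle. With library size as the only scaling these were 3954 higher and 2345 lower. Differences were mostly small, with a median absolute log2 difference of 0.22 among called genes. Of 1507 listed genes 1095 passed the filter on low counts, and 400 (36.5%) were called, 189 higher and 211 lower in vehicle. The median log2 difference of the listed genes tested was -0.02 against 0.00 over all genes tested. Differences of at least 2-fold were found in 5 of the 400 and in 163 of the 6151 called over all genes. All vehicle libraries carry the label E1 and all low-dose ones the labels 14 or 15, so treatment and label set cannot be told apart. Replicates of the low-dose groups varied more than those of vehicle, with a mean chi-square per gene between pairs of 6.66 to 33.2 against 2.43 to 2.87, while the fit shared its estimate of spread over all groups. Mitochondrial transcripts took 5.06 to 5.42% in vehicle against 6.85 to 10.1% in these low-dose libraries, the 3 lincRNA genes of chromosome 21 with the wide spread summed to 108 to 330 against 492 to 1979 CPM, and their part in the differences was not tested.

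Of the 5 given markers, GJA1 was higher in vehicle, with a log2 difference of 0.21 ± 0.03 (SE, edgeR adjusted p = 3.2e-06), as was SOX9, with 0.12 ± 0.04 (SE, edgeR adjusted p = 0.013), and in both genes the groups did not overlap. SLC1A3 was called at 0.11 ± 0.04 (SE, edgeR adjusted p = 0.04), although its groups overlapped. VIM and COL1A1 did not pass, at -0.09 ± 0.05 (SE, edgeR adjusted p = 0.2) and -0.06 ± 0.03 (SE, edgeR adjusted p = 0.22), although VIM was called in 1 of 16 other settings, without Sayeok-tang low dose replicate 1 (adjusted p range over all settings 0.031 to 0.53). The SLC1A3 call was lost in 10 of 16 other settings, including DESeq2 and the omission of any vehicle library (adjusted p range over all settings 0.01 to 0.23), and the SOX9 call in 2, with no filter on low counts and without vehicle replicate 2 (adjusted p range 0.0025 to 0.1).

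Of listed genes with at least 1 CPM, the largest excess in vehicle was that of EGF, the epidermal growth factor gene, with 1.07 ± 0.229 CPM against 0.495 to 0.8799 CPM in the low-dose libraries, a log2 difference of 0.66 ± 0.21 (SE, edgeR adjusted p = 0.015). Its vehicle libraries overlapped the low-dose ones, and the call was lost without vehicle replicate 1 or without vehicle replicate 2 (adjusted p range over all settings 0.009 to 0.11). NR1D2, a circadian repressor gene, had 94.97, 99.6 and 99.4 CPM against 58.95 to 67.7 CPM, a log2 difference of 0.57 ± 0.05 (SE, edgeR adjusted p = 2.4e-09). FGF5, an FGF ligand gene, had 39.8, 40.7 and 40.4 CPM against 25.1 to 30.6 CPM, with 0.54 ± 0.05 (SE, edgeR adjusted p = 3.2e-08). The groups did not overlap for NR1D2 or FGF5, nor for TP63, a transcription factor gene, and BMPR2, a receptor of bone morphogenetic proteins, whose log2 differences were 0.57 (edgeR adjusted p = 4.4e-05) and 0.45 (edgeR adjusted p = 7.1e-05).

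In the other direction, CCN1, a matricellular protein gene, had 197, 194 and 216 CPM against 306 to 409 CPM, a log2 difference of -0.74 ± 0.07 (SE, edgeR adjusted p = 1.9e-07). FOS had 1.61, 1.604 and 1.80 CPM against 2.15 to 3.17 CPM, with -0.77 ± 0.13 (SE, edgeR adjusted p = 7e-05). KLF2, a factor of endothelium and T cells, GLI1, an effector of Hedgehog signalling, and MAGED4 had -0.77 (edgeR adjusted p = 6e-06), -0.66 (edgeR adjusted p = 8.9e-05) and -0.67 (edgeR adjusted p = 0.0075). These genes were picked as the lowest listed differences, and in each the groups did not overlap. For MAGED4 the highest vehicle library had 19.6 CPM and the lowest low-dose library 19.97 CPM. The share of all genes tested without overlap was not counted, so the absence of overlap here and above has no background. The MAGED4 call was lost in 2 of 16 other settings, without vehicle replicate 3 and with only the compared groups in the fit.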

How the data were processed

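RNA of SW1783 cells was sequenced as strand-marked libraries with paired reads of 100 bp, per the labels' protocols. Per the submitters' processing notes, reads were handled with STAR 2.7.3a, RSEM 1.3.3, Trim Galore 0.6.5 and FastQC 0.11.9 on hg38 (GRCh38). No source used here gives the annotation release or the strand setting. The authors deposited 1 table of RSEM expected counts, estimated per gene and not normalised, for 60675 Ensembl genes.

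Here counts were divided by each library's total to give CPM, and by merged exon length from GENCODE v29 to give CPM per kb. Gene names came from the reference tables for 93.2% of the identifiers. Samples were grouped by their labels, and no library was left out. Some genes that are counted in the lists are not reported by name here. The members, lists and tests were chosen with earlier results of these data known. Genes were named if they were among the 30 highest in CPM or CPM per kb, belonged to a list, were among the 10 with the widest spread, or were among the 5 highest and 5 lowest listed differences, and others are marked as chosen after their values were seen. Expected counts, rounded to whole numbers, were fitted in edgeR 4.0.16 (R 4.3.3; filterByExpr, TMM, quasi-likelihood test, 13 group means over all 30 libraries) with Benjamini-Hochberg adjustment over 19632 genes and a threshold of 0.05. DESeq2 1.42.0 was an alternative, beside other scaling, filters, lengths, thresholds and the omission of single libraries. Tested on simulated data for this comparison over 19632 genes, the fit recovered 82% of changes of 1.25-fold, 90% of 1.5-fold and 100% of 2-fold, with 6.06% false among 198 calls. In the simulation far fewer genes changed than were called here, and each gene had the same spread in all groups. The real low-dose replicates varied more than vehicle, so these rates need not hold for the 6151 calls. Depth was 28.01 to 37.41 M counts in vehicle and 34.4 to 59.9 M in treated libraries, so 3 counts correspond to 0.0802 to 0.107 CPM in a vehicle library, for counting error only. The p-values reflect only how these libraries vary, and that variation may be technical.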

Additional observations from a re-analysis of the deposited data

How the results depend on the processing

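The number of genes used by vehicle cells was 14749 at 0.5 CPM, 11062 at 5 CPM, 13694 without mitochondrial genes, ribosomal RNA genes and the 3 chromosome 21 lincRNA genes in the total, 14488 at 1 TPM, and 13663 to 13711 when 1 vehicle library was left out. Families with 1 dominant member numbered 22 with the longest transcript, 20 without length and 15 at a share of 90%. Genes with a highest to lowest ratio of 1.5 or more numbered 9 to 10 when 1 of the 3 vehicle libraries was left out, in settings chosen after seeing the data, since fewer libraries enter the ratio. Vehicle against low dose gave 6299 calls with library size as the only scaling, 5879 with no filter, 5082 with only the compared groups, 5853 with DESeq2 and 4336 to 6458 when 1 library was left out. Scaling by library size moved the share of calls that were higher in vehicle from 52.4% to 62.8%. Of 160 alternatives of the 10 named genes, 156 kept their call and direction, 4 lost the call and 0 reversed. Deviations of same-numbered libraries gave r of 0.16 to 0.22 for Sayeok-tang, 0.04 and 0.09 for Banhasasim-tang and -0.15 to -0.04 for Bojungikgi-tang. As the sign differed between formulas, replicate numbers were not taken as pairs. A fit with the replicate block gave 6190 calls, 3247 higher and 2943 lower in vehicle. Depth limits statements on silent genes to the upper limits given.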
